A study of Mus musculus with 6 samples.

Results

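The genes described here drive the passage from G2 through mitosis, and they were followed in sorted epidermal cells of newborn mice with and without the labelled loss of Ring1a and Ring1b. They are 37 genes chosen by name, covering G2/M cyclins, mitotic kinases, spindle kinesins, checkpoint genes and centromere genes, and all 37 were found among the 24453 gene symbols of the count files. RNA sequencing was done on interfollicular epidermis from back skin at postnatal day 0, sorted as EpCAM-positive and Sca1-positive cells with high α6-integrin, a gate that enriches for epidermal progenitors. There were 3 libraries labelled Ring1a-/- Ring1b-/- (knockout-labelled K1, K2 and K3) and 3 labelled Control (control-labelled C1, C2 and C3). The sources used here say neither how both genes were deleted nor which alleles the controls carry. Separate animals are not named in the labels, so every p-value below measures the spread among these 6 libraries alone, and part of that spread may be technical. The comparison asks how the loss of Polycomb repressive complex 1 (PRC1), whose catalytic ubiquitin ligases are Ring1a (gene Ring1) and Ring1b (gene Rnf2), bears on this set of genes.

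A dividing cell enters mitosis when cyclin A and cyclin B activate the kinase Cdk1, then builds a spindle, checks that every kinetochore is attached, separates its chromosomes and divides. The genes for these steps are transcribed together late in the cycle. MuvB complexes hold them silent in resting cells and, with B-Myb and then Foxm1, switch them on in G2, binding a short promoter element called the cell cycle genes homology region (CHR). In the epidermis such genes mark the cycling cells of the basal layer, which divide to renew the tissue and stop when they move upward and differentiate.

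Ring1 levels in the replicate 3 libraries went against their labels, and the replicate 1 libraries stood apart on the second principal component. Summed over all symbols the libraries held 18951665 to 31187270 counts in the knockout-labelled and 22699108 to 29193535 in the control-labelled group. Ring1 had 1.66, 5.20 and 14.2 CPM (the counts of a gene relative to its TMM-scaled library size) in K1, K2 and K3, against 30.9, 17.1 and 3.90 CPM in C1, C2 and C3, so in the replicate 3 libraries the order was against the labels. Rnf2 had 55.4 to 64.0 CPM in the knockout-labelled and 43.2 to 63.1 CPM in the control-labelled libraries, and neither gene was called (edgeR adjusted p = 0.389 and 0.575). Reads from outside the deleted stretch, whose place is not stated, could still be counted for both genes. On the first principal component (56.7% of the variance) the libraries grouped by label, replicate 3 included. K1, K2 and K3 lay at -93.5, -68.4 and -57.8, against 84.6, 64.0 and 71.0 for C1, C2 and C3. K1 and C1 stood apart from the other libraries on the second principal component, at 62.7 and 55.3 against -38.8 to -15.2. The 7 basal keratinocyte markers, such as the keratins Krt5 and Krt14, summed to 27336 to 30930 CPM in the knockout-labelled and 32028 to 46759 CPM in the control-labelled libraries, far above the markers of any other cell type. Of these 7, Trp63, a regulator of basal identity, and the adhesion collagen Col17a1 were called lower (log2 fold change -0.79 ± 0.16 and -0.74 ± 0.17, SE; edgeR adjusted p = 0.0176 and 0.0278). Summed markers of other cells reached at most 731 against 799 CPM for 8 fibroblast genes, 202 against 257 CPM for 8 immune genes, 39.1 against 48.3 CPM for 6 endothelial genes and 34.1 against 19.1 CPM for 8 melanocyte genes in the highest knockout-labelled and control-labelled library. None of these 4 lists had a gene at 0 in every library, and 0 of their genes were called (edgeR; at an unadjusted p under 0.05, 1 fibroblast gene was lower and 1 fibroblast and 3 melanocyte genes were higher; DESeq2 called 2 melanocyte genes higher, and limma-voom called 0). The 6 Merkel markers summed to 27.6 to 77.0 CPM in the knockout-labelled and 0.612 to 2.62 CPM in the control-labelled libraries. Most of the knockout-labelled sum was Krt18, at 67.5, 25.4 and 19.8 CPM in K1, K2 and K3. Only 3 of the 6 had enough counts to be tested, Krt18, Isl1 and Sox2, and these were called higher. Of the others, Atoh1 had at most 0.154 against 0.342 CPM, Krt8 at most 1.97 against 1.20 CPM and Krt20 at most 2.18 against 0.137 CPM. The 9 hair follicle markers summed to 923 to 1466 against 702 to 793 CPM, and 3 of them, Krt25, Krt27 and Krt71, were called lower. The largest part of the sum was Krt17, at 740 to 940 against 362 to 679 CPM and not called (edgeR adjusted p = 0.118). Sox9 was highest in the replicate 1 library of each group, at 460 CPM in K1 and 307 CPM in C1. Of the 9 log2 fold changes 6 were negative and 3 positive, so the estimates of these markers went in different directions. The part of these cells in the results below was not tested.

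Most promoters examined held letters of the element named above. RefSeq start sites on GRCm38.p6 gave windows from 250 bases before to 50 after the start for 30 of the 37 genes. The other 7 are Ccna2, Cdc25c, Foxm1, Aurkb, Incenp, Kif20a and Tpx2. A CHR hexamer, TTTGAA or TTCGAA on either strand, was in the windows of 23 of the 30 genes (76.7%), against 21.7% of all genes with a window of the same length. CCAAT on either strand, the letters that the factor NF-Y binds, was in 23 of the 30 (76.7%), against 41.1% of all genes, and 20 (66.7%) held both in 1 window, against 8.61%. For 21 genes a hexamer lay within 50 bases of the start. A match is a description of letters and not of binding. The median log2 fold change between the groups was -0.57 in the 23 genes with a hexamer and -0.50 in the 7 with a window but none, with ranges of -0.91 to 0.08 and -1.01 to -0.36 that overlap.

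One site from each group of genes shows where the hexamer sits and the letters around it. The search fixed the hexamer itself. The full flanks differ from site to site, but ttc follows the hexamer in Plk1, Hmmr and Prc1, and tcg follows it in Ccnb2 and Cenpf. Each site holds the hexamer nearest the start in its group, a choice made after the data were seen. Sites are written in the direction of the gene with the hexamer in capitals.
Ccnb2, cyclin (chr9:70421536-70421559, minus strand): ggcgcggtaTTTGAAtcgcggacc
Plk1, mitotic kinase (chr7:122159456-122159479, plus strand): agcgccgcgTTTGAAttcggggag
Ttk, checkpoint kinase (chr9:83834687-83834710, plus strand): cggggaaatTTCAAAcgtgtttcc
Cenpf, kinetochore (chr1:189688070-189688093, minus strand): ggcgggcagTTTGAAtcgctcgtg
Hmmr, spindle (chr11:40733415-40733438, minus strand): tgaggtaaaTTTGAAttcaggcga
Prc1, cytokinesis (chr7:80294437-80294460, plus strand): ctggctcggTTTGAAttccgcggg
Top2a, chromosome topology (chr11:99024198-99024221, minus strand): agataaaggTTCAAAtgaaactag
In Ttk and Top2a the hexamer is on the strand opposite to the gene, so it is read there as its reverse complement. The same holds for Ndc80 below. Ndc80, Cenpf and Mki67 had the lowest fitted log2 fold changes among the genes with a hexamer, and their stretches are shown with hexamers and CCAAT boxes in capitals.
Ndc80 (chr17:71526811-71526840, minus strand): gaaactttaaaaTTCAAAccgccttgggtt
Cenpf (chr1:189688067-189688230, minus strand): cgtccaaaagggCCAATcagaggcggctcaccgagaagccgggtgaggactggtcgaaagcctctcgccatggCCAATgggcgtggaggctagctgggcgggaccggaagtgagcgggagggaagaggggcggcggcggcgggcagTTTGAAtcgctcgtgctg
Mki67 (chr7:135716460-135716579, minus strand): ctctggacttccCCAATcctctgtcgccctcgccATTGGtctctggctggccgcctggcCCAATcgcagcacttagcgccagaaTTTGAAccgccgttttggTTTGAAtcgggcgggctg
Cenpf and Mki67 thus carry CCAAT boxes upstream of their hexamers, 2 and 3 of them, and the Ndc80 window has none.

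Mitotic genes had lower fitted levels in the knockout-labelled epidermis almost throughout, and for most of them the libraries of the groups overlapped. Of the 37 genes 36 had a negative log2 fold change, against 50% of all 14890 genes tested, and the median was -0.53, against 0.00 for all genes. Only Cdc25c fell by the test (1 of 37, against 2.98% of all genes called lower), and 0 rose, against 7.17% of all genes called higher (edgeR quasi-likelihood test; 0 higher at an unadjusted p under 0.05, against 14.5%; 0 by DESeq2 and 0 by limma-voom). At an unadjusted p under 0.05, 16 of the 37 were lower, against 9.86% of all genes. In 8 genes every knockout-labelled library lay below every control-labelled one, which is 21.6% against 14.8% of all genes, and in 0 did every one lie above, against 17.6%. DESeq2 called 5 of the 37 lower (Ccna2, Cdc25c, Cenpf, Ndc80 and Nusap1), against 6.02% of all genes, and limma-voom called 0, against 3.22%. Whether fewer cells were cycling or each cycling cell held less of these RNAs cannot be told apart in bulk RNA. The fit with replicates 1 and 2 of each group alone leaves out the libraries whose Ring1 order goes against the labels. There 0 of the 37 were called, against 0.57% of all genes called lower, and the median was -0.37. At an unadjusted p under 0.05 by edgeR, 2 of the 37 passed, and the share of all genes at that threshold was not computed. With replicates 2 and 3 alone 14 were called lower, against 7.1% of all genes. Leaving out 1 library gave 8 lower calls without K1 (2.85% of all genes) and 4 without C2 (1.75%). It gave 0 without K2, K3, C1 or C3, against 1.13%, 1.6%, 1.84% and 1.19% of all genes called lower. In these 4 settings 7, 5, 8 and 6 passed an unadjusted p under 0.05 by edgeR, again without a share of all genes at that threshold.

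**Figure D1:**
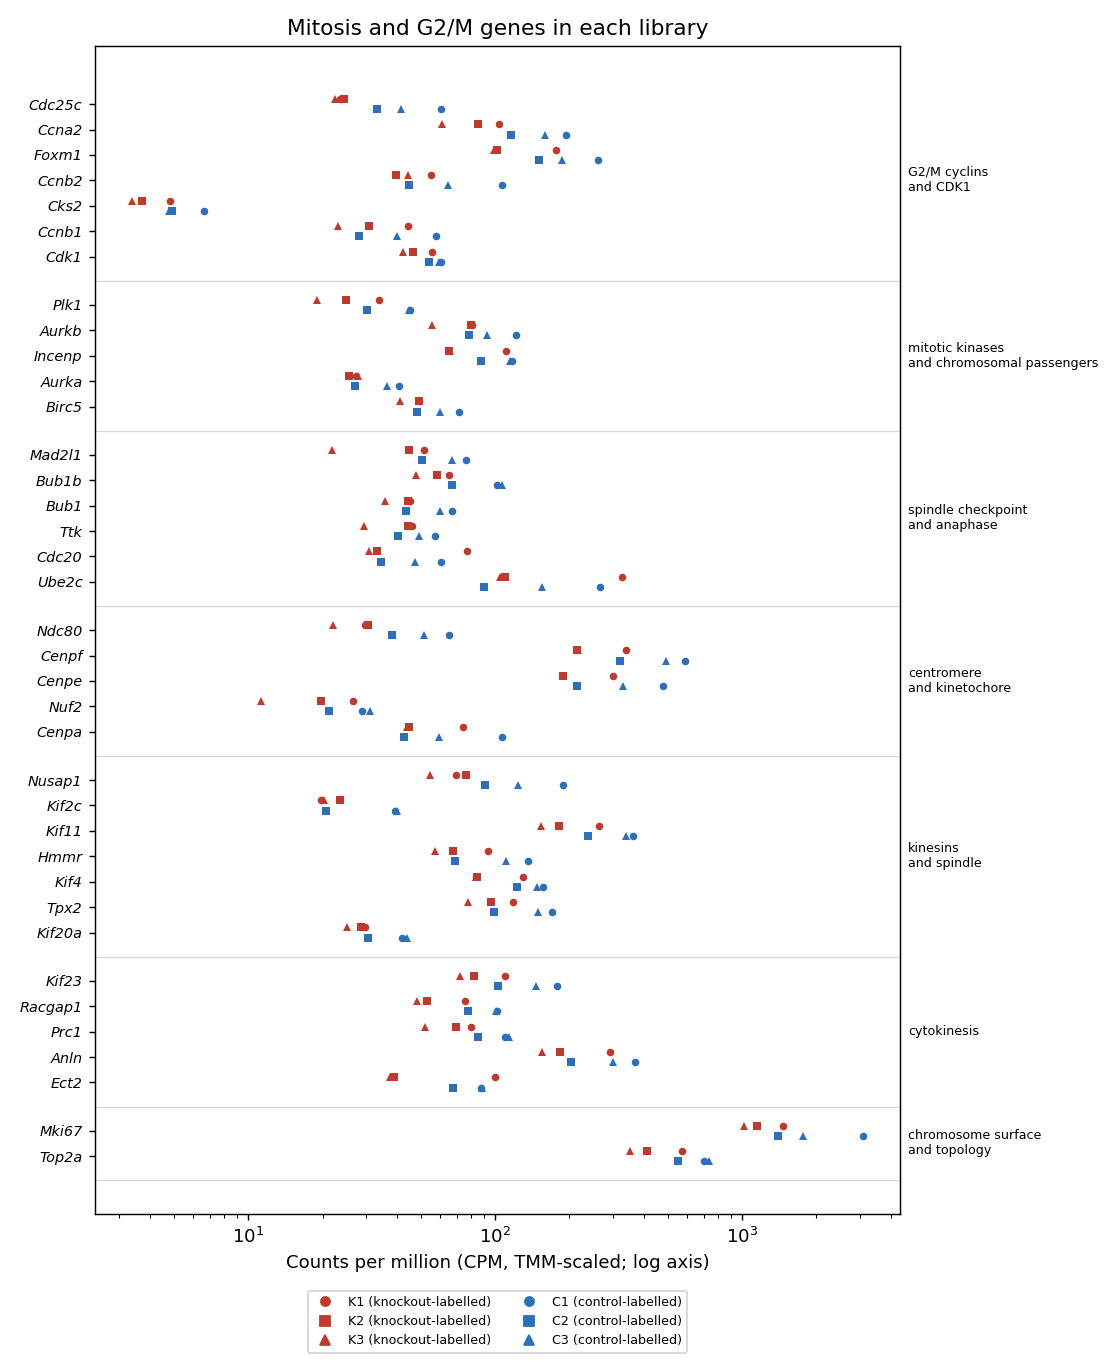
Levels of the 37 genes in each library, in CPM on a log axis, with knockout-labelled libraries (red) above control-labelled libraries (blue) in each row and marker shapes for replicates 1, 2 and 3. In most rows the blue points reach further right, the red circle (K1) lies right of the blue square (C2) for 27 genes, and Mki67 is the most counted gene at 1016 to 1464 against 1392 to 3094 CPM.

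The first group holds the cyclins and the machinery of Cdk1, with the 1 gene called. Cdc25c, a phosphatase that removes inhibitory phosphates from Cdk1 (chromosome 18, 34732993 to 34751533, on the minus strand of GRCm38), had 23.5, 24.5 and 22.4 CPM in K1, K2 and K3, against 60.7, 33.4 and 41.6 CPM in C1, C2 and C3. The knockout-labelled libraries were close together and all lay below the control-labelled ones, which varied more. Cdc25c averaged 23.5 ± 1.04 CPM in the knockout-labelled and 45.2 ± 13.99 CPM in the control-labelled group (SD, n = 3 each), which the model put at -0.95 ± 0.25 on the log2 scale (SE; edgeR adjusted p = 0.0458). The call was lost without K1, K2, K3, C1 or C3 (adjusted p = 0.0813, 0.123, 0.130, 0.0948 and 0.106) and held without C2 (0.0401), and limma-voom did not make it (0.0536).

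Cyclin A2 was close behind. Ccna2, the cyclin of S phase and G2 (chromosome 3, 36564865 to 36572150), had 103, 84.9 and 61.0 CPM in K1, K2 and K3, against 195, 117 and 160 CPM in C1, C2 and C3. The groups did not overlap, with C2 nearest to K1. The fitted log2 difference, -0.92 ± 0.26 (SE), missed the threshold (edgeR adjusted p = 0.0575). The B cyclins, which bind Cdk1 at the entry to mitosis, overlapped between groups. Ccnb1 had 44.5, 30.8 and 23.1 CPM in the knockout-labelled libraries, against 57.7, 28.0 and 40.1 CPM in the control-labelled ones, and Ccnb2 had 54.9, 39.7 and 44.3 against 107, 45.0 and 64.3 CPM. Here K1 and K2 lay above C2 for Ccnb1 and K1 lay above C2 for Ccnb2, and the 95% intervals of the log2 fold changes, -1.10 to 0.39 and -1.34 to 0.07, held 0.

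The kinase itself had the smallest estimate of the group. Cdk1 had 55.3, 46.6 and 42.2 CPM in K1, K2 and K3, against 60.4, 53.9 and 59.4 CPM in C1, C2 and C3. Its log2 fold change was -0.27 with a 95% interval of -0.69 to 0.15, so a fall to the size fitted for Cdc25c lay outside the interval. Cks2, a small Cdk1-binding protein, was the least counted of the 37, at 3.38 to 4.84 against 4.79 to 6.64 CPM. Foxm1, the factor that switches on G2/M genes, had 176, 102 and 99.1 CPM in the knockout-labelled libraries, against 262, 151 and 187 CPM in the control-labelled ones. K1 overlapped C2, and the log2 fold change of -0.67 ± 0.29 (SE) was not called (edgeR adjusted p = 0.192).

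The mitotic kinases and the chromosomal passengers all had negative estimates, and none of the 5 was called (edgeR; 1 lower at an unadjusted p under 0.05, 0 by DESeq2, 0 by limma-voom). Plk1, which drives mitotic entry and centrosome maturation, had 34.0, 25.0 and 19.1 CPM in K1, K2 and K3, against 45.3, 30.2 and 44.7 CPM in C1, C2 and C3. Only K1 lay above the lowest control-labelled library, and the log2 fold change was -0.63 (95% interval -1.24 to -0.01; edgeR adjusted p = 0.201). Aurora kinase A (Aurka), of the spindle poles, had 25.7 to 27.8 CPM in the knockout-labelled libraries, a narrow range, against 27.1 to 40.7 CPM in the control-labelled ones. Aurora kinase B (Aurkb) and its partners in the chromosomal passenger complex, the scaffold Incenp and survivin (Birc5), had log2 fold changes of -0.43, -0.40 and -0.36. For Aurkb and Birc5, K1 and K2 both lay above C2, and all 3 intervals held 0.

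The checkpoint and anaphase genes held the widest spread of estimates, from -0.71 to 0.08. Bub1b, the checkpoint pseudokinase BubR1, had 65.1, 57.9 and 47.7 CPM in K1, K2 and K3, against 102, 66.8 and 106 CPM in C1, C2 and C3. Its groups did not overlap, by a narrow margin between K1 and C2, and the log2 fold change of -0.69 ± 0.23 (SE) was not called (edgeR adjusted p = 0.0997). Mad2l1, which inhibits the anaphase-promoting complex until kinetochores are attached, had 51.5, 44.7 and 21.9 CPM against 75.9, 50.7 and 66.9 CPM, so K3 stood well below every other library. The kinases Bub1 and Ttk (Mps1) had log2 fold changes of -0.44 and -0.29, and in both K1 and K2 lay above C2.

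Cdc20 and Ube2c, which act after the checkpoint is satisfied, had estimates near 0 in the fit of all 6 libraries. Ube2c, the ubiquitin-conjugating enzyme of the anaphase-promoting complex, had 327, 109 and 105 CPM in K1, K2 and K3, against 266, 90.0 and 155 CPM in C1, C2 and C3. Within each group the replicate 1 library was far above the others, 3.11-fold from lowest to highest in the knockout-labelled and 2.96-fold in the control-labelled group. Its log2 fold change of 0.08 had a 95% interval of -1.07 to 1.23, which allows a change in either direction of about 2-fold. Cdc20, the activator of that complex, had 77.0, 33.2 and 30.9 CPM against 60.4, 34.5 and 47.3 CPM, with K1 highest of all 6 and a log2 fold change of -0.01 (95% interval -0.86 to 0.84). The estimate of Cdc20 was positive without K2, K3 or C1 (0.19, 0.22 and 0.20). That of Ube2c was positive without K2, K3, C1 or C3 (0.35, 0.36, 0.56 and 0.01). Without K1, without C2 and with replicates 2 and 3 of each group alone, all 37 estimates were negative, these genes included.

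Genes of the centromere and kinetochore had negative estimates in 5 of 5, and 0 were called (edgeR; 2 lower at an unadjusted p under 0.05, 2 by DESeq2, 0 by limma-voom). Ndc80, the subunit that grips microtubules (chromosome 17, 71496100 to 71526857, minus strand), counted 29.7, 30.5 and 22.05 CPM in K1, K2 and K3, against 65.3, 38.2 and 51.5 CPM in C1, C2 and C3. The groups did not overlap, and the log2 fold change was -0.91 ± 0.25 (SE; edgeR adjusted p = 0.0539). Its direct partner Nuf2 had 26.7, 19.7 and 11.3 CPM against 28.9, 21.3 and 31.05 CPM. Here the groups overlapped, K3 stood lowest, and the estimate was -0.50 (edgeR adjusted p = 0.40).

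The large kinetochore protein Cenpf (chromosome 1, 189640606 to 189688086, minus strand) reached 338, 214 and 217 CPM in K1, K2 and K3, against 586, 321 and 491 CPM in C1, C2 and C3. K1 was just above C2 and the other pairs kept their order, and the fitted log2 difference was -0.86 ± 0.27 (SE; edgeR adjusted p = 0.0839). Cenpe, a kinesin that moves chromosomes to the spindle equator, had 299.5, 188 and 189 CPM against 477, 215 and 329 CPM, again with K1 above C2. Cenpa, the histone H3 variant that marks centromeres, overlapped most in this group, with all 3 knockout-labelled libraries (44.2 to 73.9 CPM) above C2 (42.9 CPM).

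**Figure D2:**
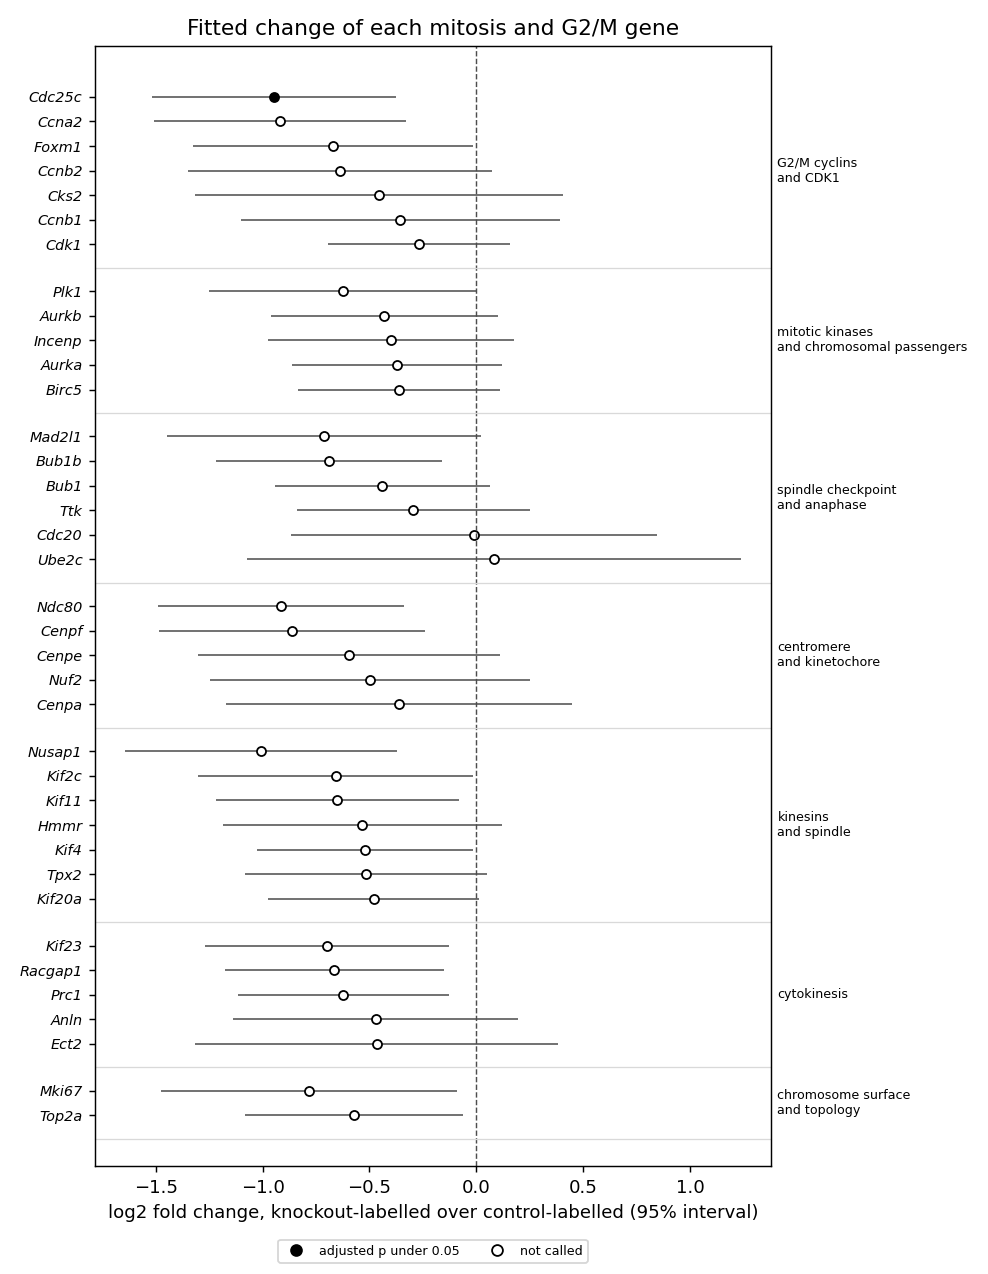
Fitted log2 fold change of each gene, knockout-labelled over control-labelled, as a point with its 95% interval, grouped by role; the filled point is the 1 called gene, Cdc25c at -0.95. Points lie left of 0 for 36 of 37 genes, and the intervals of 21 hold 0.

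The kinesins and spindle genes held the largest fitted change. Nusap1, which bundles spindle microtubules near chromosomes (chromosome 2, 119618298 to 119651244, plus strand), reached 69.4, 76.5 and 54.3 CPM in K1, K2 and K3, against 188, 90.7 and 124 CPM in C1, C2 and C3. No knockout-labelled library reached the control-labelled range, although C1 was 2.07-fold above C2. Nusap1 averaged 66.7 ± 11.3 CPM in the knockout-labelled and 134 ± 49.4 CPM in the control-labelled group (SD, n = 3 each), and its log2 fold change of -1.01 ± 0.28 (SE) missed the threshold (edgeR adjusted p = 0.0542).

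The motor Kif11, which pushes the spindle poles apart, had 263, 182 and 153 CPM in K1, K2 and K3, against 362, 238 and 338 CPM in C1, C2 and C3. Its log2 fold change was -0.65 (edgeR adjusted p = 0.147), and K1 was the single knockout-labelled library above C2. The chromokinesin Kif4, with 129.8, 84.4 and 83.7 CPM against 157, 123 and 148 CPM, had the same order of libraries. The microtubule depolymerase Kif2c had its overlap through C2, at 20.7 CPM beside 19.7 to 23.5 CPM in the knockout-labelled libraries and 39.4 and 39.97 CPM in C1 and C3. Kif20a, a motor of late mitosis (chromosome 18), had groups that did not overlap, at 25.1 to 29.8 against 30.5 to 44.1 CPM, but 29.3% of its annotated exonic bases lie under Cdc23 on the other strand. The Aurora A activator Tpx2 and the spindle protein Hmmr had log2 fold changes of -0.52 and -0.53, both with intervals that held 0.

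Of the 5 cytokinesis genes 2 had groups that did not overlap, against 14.8% of all genes, and 0 were called (edgeR; 3 lower at an unadjusted p under 0.05, 0 by DESeq2, 0 by limma-voom). Racgap1, a subunit of centralspindlin, had 75.4, 53.2 and 48.3 CPM in K1, K2 and K3, against 102, 77.8 and 101 CPM in C1, C2 and C3. Prc1, which bundles the central spindle, had 79.6, 69.2 and 51.9 against 109, 85.4 and 114 CPM. In both K1 lay just under C2, and their log2 fold changes were -0.66 and -0.62 (edgeR adjusted p = 0.103 and 0.112). Kif23, the motor subunit of centralspindlin, had a log2 fold change of -0.70 (edgeR adjusted p = 0.122), and K1 exceeded C2. Ect2, the exchange factor that turns on RhoA at the division plane, had 99.6, 39.0 and 37.5 CPM against 87.6, 67.4 and 88.2 CPM. K1 was thus the highest of the 6 libraries and K2 and K3 the lowest, 2.66-fold apart within the knockout-labelled group. Without K1 the log2 fold change of Ect2 was called (edgeR adjusted p = 0.0155), as it was with replicates 2 and 3 of each group alone. The ring scaffold Anln had 155 to 291 against 204 to 369 CPM.

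Mki67 and Top2a, the usual labels of cycling cells, were the most abundant of the set. Mki67, which coats mitotic chromosomes (chromosome 7, 135689784 to 135716361, minus strand), reached 1464, 1148 and 1016 CPM in K1, K2 and K3, against 3094, 1392 and 1759 CPM in C1, C2 and C3. C1 stood far above the rest, K1 overlapped C2, and the log2 fold change of -0.78 ± 0.30 (SE) was not called (edgeR adjusted p = 0.150). Top2a, the topoisomerase that untangles sister chromatids, had 573, 410.4 and 352 CPM against 702, 549 and 736 CPM, with the same overlap and a log2 fold change of -0.57 (edgeR adjusted p = 0.153). Per kilobase of the longest annotated transcript, the mean level of Mki67 was 120.2 CPM in the knockout-labelled and 207 CPM in the control-labelled group. Top2a followed at 85.3 against 127 CPM per kilobase and Ube2c at 82.4 against 77.8 CPM per kilobase, and Cks2 was lowest in the control-labelled group, at 5.74 against 7.88 CPM per kilobase.

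Within each group the same libraries tended to be highest and lowest across the 37 genes. K1 was the highest knockout-labelled library for 31 of the 37 genes and K3 the lowest for 31, while C1 was the highest control-labelled library for 30 and C2 the lowest for 36. Summed over the 37 genes the level was 5561, 3951 and 3462 CPM in K1, K2 and K3, against 8773, 4817 and 6548 CPM in C1, C2 and C3. The sum of K1 was thus above that of C2, and K1 exceeded C2 for 27 of 37 genes. Against C1 and C3, by contrast, K2 and K3 were lower for 37 of 37 genes each. The median of each gene's log2(CPM + 1) minus its mean over the 6 libraries was 0.06, -0.33 and -0.56 in K1, K2 and K3, against 0.57, -0.07 and 0.36 in C1, C2 and C3, where C2 was nearest to the knockout-labelled group.

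The replicate 1 libraries differed from the others in further gene groups. The 44 DNA replication genes, which act in S phase, had a median deviation of -0.80, 0.11 and -0.30 in K1, K2 and K3, against 0.20, 0.30 and 0.46 in C1, C2 and C3. K1 therefore had the lowest level of replication genes of all 6 libraries while its mitotic genes were the highest of its group. The 9 suprabasal keratinocyte markers, genes of differentiating cells such as Krt1 and Krt10, summed to 1913, 4579 and 4802 CPM in K1, K2 and K3, against 2464, 5605 and 3880 CPM in C1, C2 and C3. Both replicate 1 libraries were thus lowest for differentiation markers and highest in their group for mitotic genes, and the part of this in the results was not tested. The ribosomal RNA gene Rn45s took 6.95% of counts in K1 and 5.64% in C1, the lowest share in each group, against up to 10.4% in K2.

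**Figure D3:**
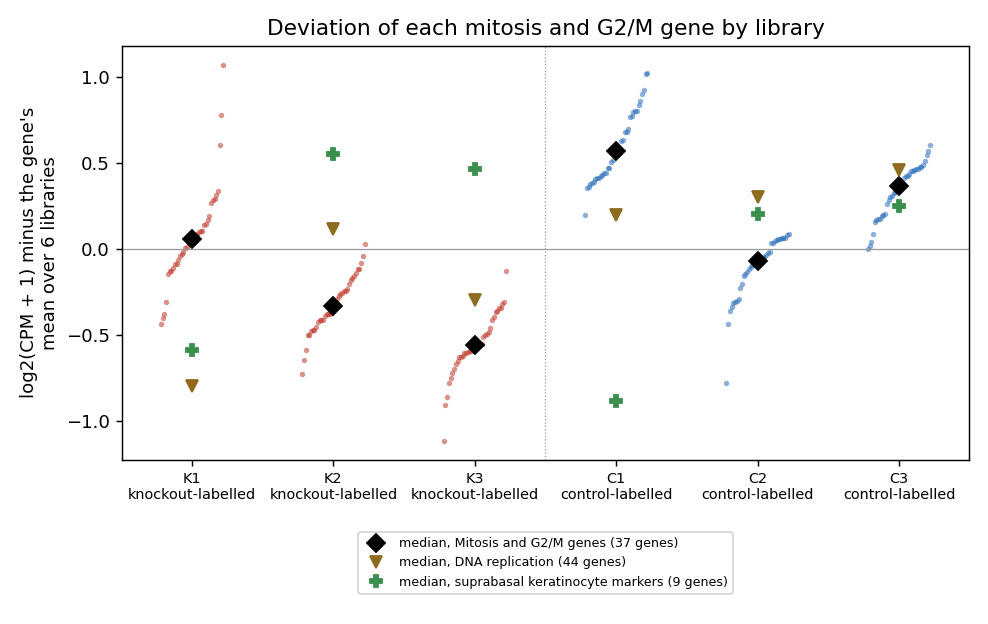
Each dot is 1 of the 37 genes, plotted as log2(CPM + 1) minus its mean over the 6 libraries, for knockout-labelled libraries on the left and control-labelled ones on the right; diamonds are the median of the 37, triangles of 44 DNA replication genes and crosses of 9 suprabasal markers. The diamonds span -0.56 to 0.06 in the knockout-labelled and -0.07 to 0.57 in the control-labelled libraries, and in K1 the triangle sits far below the diamond.

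Other genes of mitosis outside the 37 had a similar median. Of 84 such genes 7 fell and 0 rose (edgeR; 0 higher at an unadjusted p under 0.05, 0 by DESeq2, 0 by limma-voom), against 2.98% of all genes called lower, and their median log2 fold change was -0.51. At an unadjusted p under 0.05 by edgeR, 32 were lower, against 9.86% of all genes. In 31 (36.9%, against 14.8% of all genes) every knockout-labelled library lay below every control-labelled one. In 1 every one lay above, against 17.6%. Kntc1, of the kinetochore complex that recruits the spindle checkpoint, had 39.995, 50.5 and 37.7 CPM in K1, K2 and K3, against 91.5, 86.0 and 91.0 CPM in C1, C2 and C3. Its groups were well apart, and the fitted log2 difference was -1.07 ± 0.18 (SE; edgeR adjusted p = 0.00862), and it was called without any 1 library. The nuclear lamin Lmnb1 fell by 0.77 in log2 units, the spindle motor Kif15 by 0.88 and Cdca2, which targets a phosphatase to chromatin, by 1.07 (edgeR adjusted p = 0.0214, 0.0249 and 0.0345). These 3 calls were lost without K2, K3 or C3 for Lmnb1 (0.0794 to 0.102), without K2, K3, C1 or C3 for Kif15 (0.0571 to 0.0977) and without any library but C2 for Cdca2 (0.0732 to 0.107). The number called lower was 13 by DESeq2 (6.02% of all genes), 7 by limma-voom (3.22%) and 20, with 1 higher, with replicates 2 and 3 alone (7.1%). It was 6 without K1 or C2 (2.85% and 1.75%), 3 without C1 (1.84%), 2 without K2 (1.13%) and 1 without K3 or C3 (1.6% and 1.19%). With replicates 1 and 2 alone it was 0, against 0.57% of all genes called lower. At an unadjusted p under 0.05 by edgeR, 8 were lower there, and the share of all genes at that threshold was not computed.

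Replication genes had a median log2 fold change of -0.59, and 7 of 44 fell and 0 rose, against 2.98% of all genes called lower and 7.17% called higher (edgeR; 0 higher at an unadjusted p under 0.05, 0 by DESeq2, 0 by limma-voom). At an unadjusted p under 0.05 by edgeR, 19 were lower, against 9.86% of all genes. In 23 (52.3%, against 14.8% of all genes) every knockout-labelled library lay below every control-labelled one. In 0 did every one lie above, against 17.6%. Gins2, of the replicative helicase, had 15.3, 24.5 and 20.8 CPM in K1, K2 and K3, against 41.0, 49.6 and 51.9 CPM in C1, C2 and C3. All knockout-labelled libraries were below all control-labelled ones, and the log2 fold change was -1.23 ± 0.23 (SE; edgeR adjusted p = 0.0128; 0.0584 without C3). The ubiquitin ligase adaptor Dtl, the helicase subunit Mcm4 and the polymerase subunit Pola1 fell by 1.06, 0.87 and 0.96 in log2 units (edgeR adjusted p = 0.0285, 0.0326 and 0.0343). These were lost without K3, C1, C2 or C3 for Dtl (0.0514 to 0.105) and Mcm4 (0.0661 to 0.114) and without K1, K3, C2 or C3 for Pola1 (0.0686 to 0.130). DESeq2 called 10 of the 44 lower, limma-voom 7, and edgeR 9 with replicates 2 and 3 alone. There were 5 calls without K1, 4 without K2, 3 without C1 and 1 without K3 or C2, beside the all-gene shares given above for these settings. There were 0 without C3 and 0 with replicates 1 and 2 alone (11 and 4 at an unadjusted p under 0.05 by edgeR).

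Inhibitors of cyclin-dependent kinases were split, with 4 positive and 3 negative estimates. Of the 7, 3 rose and 0 fell (edgeR; 2 lower at an unadjusted p under 0.05, 2 by DESeq2, 1 by limma-voom), against 7.17% of all genes called higher. Cdkn1c (p57) had 76.7, 69.4 and 68.7 CPM in K1, K2 and K3, against 19.1, 22.5 and 15.0 CPM in C1, C2 and C3. The groups were far apart, and the fitted log2 difference was 1.92 ± 0.21 (SE; edgeR adjusted p = 0.00137). Cdkn1a (p21) had 469, 414 and 450.3 CPM against 256, 259 and 245 CPM (edgeR adjusted p = 0.0114; 0.0501 without C2 and 0.0661 without C3). Cdkn2a, which encodes p16 and p19Arf, had 117 counts over the knockout-labelled and 0 over the control-labelled libraries, a level at least 38.8-fold higher when 3 counts are taken as the most that 0 over the control-labelled group allows, for counting error only (edgeR adjusted p = 0.0111). With replicates 1 and 2 of each group alone the call of Cdkn1c held (edgeR adjusted p = 0.0275). Those of Cdkn2a and Cdkn1a were lost there (edgeR adjusted p = 0.0919 and 0.212). Among the inhibitors not called with all libraries, Cdkn1b (p27) and Cdkn2c (p18) had log2 fold changes of -1.08 and -0.93. The list's median was 0.81, also with Cdkn2a at its bound.

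Few upstream regulators or subunits of the anaphase-promoting complex were called. Of 10 cyclins and kinases of G1 and the G1/S boundary, Ccnd1, cyclin D1, rose (1 of 10, against 7.17% of all genes called higher), with 497, 434 and 345 CPM in K1, K2 and K3, against 255, 236 and 280 CPM in C1, C2 and C3 (log2 fold change 0.73 ± 0.18, SE; edgeR adjusted p = 0.0392). Its groups did not overlap, but the call was lost without any library but K3 (0.0597 to 0.142) and with an offset for GC content and length (0.105). The median of the list was -0.26, and 7 of the 10 estimates were negative. Called lower were 0 by edgeR, against 2.98% of all genes, 2 by DESeq2 and 0 by limma-voom. At an unadjusted p under 0.05 by edgeR, 2 were lower. Of 20 MuvB, E2F and pocket protein genes 0 were called (edgeR; 1 lower and 1 higher at an unadjusted p under 0.05, 0 by DESeq2, 0 by limma-voom), with a median of -0.16. Tfdp1, the E2F partner with the highest mean among them, had a log2 fold change of 0.16 ± 0.17 (SE). Of 15 subunits of the anaphase-promoting complex edgeR called 0, and their median was -0.20. At an unadjusted p under 0.05 by edgeR, 3 were lower, against 9.86% of all genes. DESeq2 called 2 lower, against 6.02% of all genes, and limma-voom 0, against 3.22%. The scaffold Anapc1 was at 0.00 ± 0.16 (log2 fold change, SE).

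**Figure D4:**
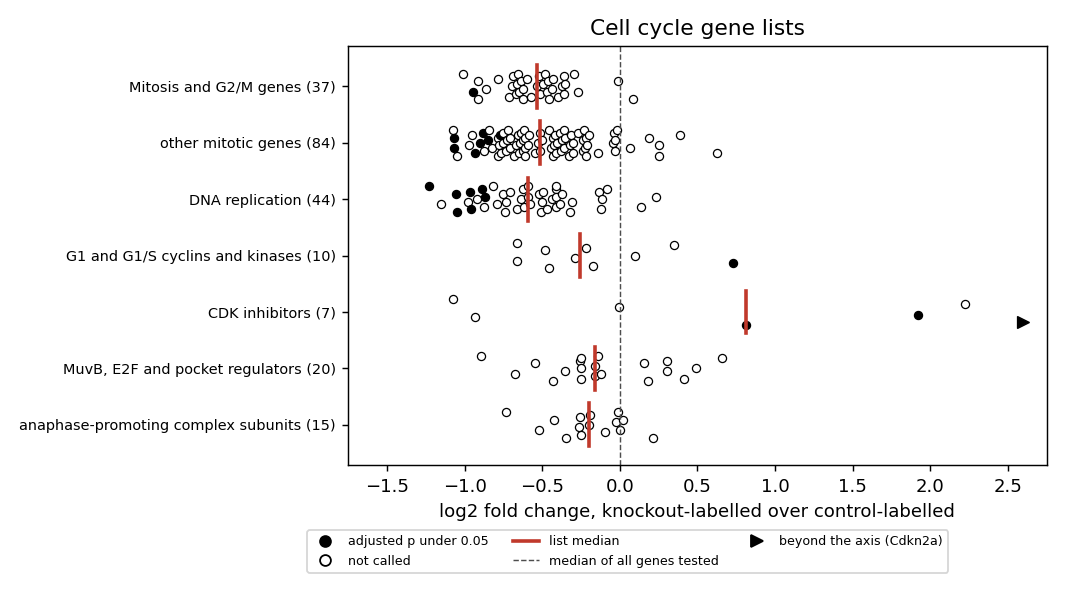
Fitted log2 fold changes, knockout-labelled over control-labelled, of every gene in 7 cell cycle lists; filled points passed an adjusted p under 0.05, red bars are list medians, the dashed line is the median of all genes tested and the arrow is Cdkn2a, beyond the axis. The first 3 lists have medians of -0.53, -0.51 and -0.59, and the median of the CDK inhibitors is 0.81.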

How the data were processed

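The authors deposited raw counts per gene symbol, 1 file per library. Per the submitters' processing notes the genome was mm10 and the tools were DESeq2 1.6.3, HTSeq 0.6.1, Cufflinks 2.2.1 and TopHat2 2.0.13, with no roles; annotation and strand are not given in the sources used here. Per the labels' protocols, 10 ng of RNA was amplified before sequencing in single reads of 100 nucleotides. Without strand, exonic overlaps with genes on the other strand (Ccna2, Cdc20, Kif4, Kif20a, Nusap1, Prc1 and Ube2c) leave those counts uncertain to differing extents. The overlap covers 2.84% of the exonic bases of Cdc20, 4.24% of Nusap1, 22.8% of Ube2c and 29.3% of Kif20a, with the other 3 between 11.1% and 15.1%. Over all libraries Tnnc2, across from Ube2c, had 55 counts against 28520, and Cdc23, across from Kif20a, had 9564 against 5300.

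Counts of all genes were fitted with edgeR 4.0.16 in R 4.3.3 (TMM, filterByExpr with a minimum count of 10 and total of 15, two-sided quasi-likelihood F test, no covariate, prior count 0.125), with Benjamini-Hochberg adjustment over 14890 genes and calls at 0.05. All 37 genes passed the filter. Intervals are 95%, from the model's SE. The fit was tested on simulated counts. Lists are described by counts and medians. Every one of the 37 genes is named, as are up to 4 called genes of each other list by smallest p, or the most counted gene. Members and lists were chosen with earlier results of these data known. Alternatives used DESeq2 1.42.0, limma 3.58.1, other scaling and filters, a replicate block, an offset for transcript length and GC content (known for 97.9% of tested genes) and fewer libraries. Positions are from GENCODE M21 on GRCm38. Promoter windows are RefSeq's on GRCm38.p6. Figures used matplotlib 3.10.9.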

Additional observations from a re-analysis of the deposited data

How the results depend on the processing

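The number of mitotic genes called lower was 1 and depended on the setting. It was 4 with library size alone (2.86% of all genes called lower), 4 without a count filter (2.68%), 5 by DESeq2, 0 by limma-voom (16 at an unadjusted p under 0.05) and 0 with a 2-fold minimum (2.12%). It was 4 with the GC and length offset (6.39%), where the median of all genes moved to -0.13, that of the 37 genes to -0.60 and the share of calls that were higher to 48.6%, against 70.6%. Without 1 library it ranged from 0 to 8: 8 without K1, 4 without C2 and 0 without K2, K3, C1 or C3. It was 0 with replicates 1 and 2 of each group alone and 14 with replicates 2 and 3 alone. The number called higher was 0 in all 18 alternatives. Calls over all genes, 1512, were 2535 by DESeq2, 811 to 1393 without 1 library, 439 with replicates 1 and 2 alone and 2694 with replicates 2 and 3 alone. The median log2 fold change of the 37 genes lay between -0.77 and -0.37 in the alternatives, and 34 genes were below 0 in all of them; Cdc20, Cenpa and Ube2c were not. The list median of the CDK inhibitors was 0.41 with at least 50 counts in 3 libraries, a filter that drops Cdkn2a, and 0.60 with the offset, and that of the G1 and G1/S genes was -0.43 with the offset. In the replicate block 3 of the 37 genes were called lower (2.92% of all genes; Ccna2, Cenpf and Foxm1, not Cdc25c) and 1451 of all genes; with the block and the offset 5 were called lower (6.15%), and the CDK inhibitor median was 0.59. The block also ended the calls of Cdca2 (adjusted p = 0.0525) and Ccnd1 (0.0573), and with the block and the offset 12 other mitotic and 14 replication genes were called lower, against 7 each. Same-numbered libraries correlated in their deviations from the group means at 0.175, 0.228 and 0.0773, each best with its own number, but no label says that the numbers pair libraries. The causes of these differences were not tested. Each of the 37 genes passed the count filter, and Cks2, at 3.38 to 6.64 CPM, was the one with the fewest counts.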
